A study of Mus musculus with 15 samples.

Results

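The genes described here encode costimulatory and checkpoint molecules, proteins on the surface of an antigen-presenting cell that strengthen or restrain the response of a T cell. They are 10 mouse genes, chosen by name and not by any measured value: *Cd40*, *Cd80*, *Cd86*, *Cd274*, *Pdcd1lg2*, *Icosl*, *Cd83*, *Havcr2*, *Vsir* and *Cd200r1*. Each was found by its Ensembl identifier among the 78317 identifiers of the count table, and all 10 were among the 16654 genes that passed the filter on low counts, *Pdcd1lg2* only through its counts in IL-4-treated cells. Its values are therefore given as a description, with no test, and counts of called members are over the other 9 genes. RNA was measured, so the values give transcript levels and not the amount of protein on the surface.

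A T cell needs a costimulatory signal beside its antigen signal. CD80 and CD86 give it through CD28 and are also bound by the inhibitory receptor CTLA-4, while ICOSL binds ICOS, and CD40 receives the CD40 ligand of activated T cells and signals into the macrophage itself. PD-L1 (*Cd274*) and PD-L2 (*Pdcd1lg2*) are the ligands of the inhibitory receptor PD-1, CD83 is a surface marker of activated antigen-presenting cells, and TIM-3 (*Havcr2*), VISTA (*Vsir*) and the CD200 receptor (*Cd200r1*) are inhibitory molecules that macrophages carry. Alveolar macrophages, which clear particles from the airspaces, are known for weak costimulation at rest.

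The libraries came from MH-S cells, an SV40-transformed line of mouse alveolar macrophages, in 5 groups of 3 wells, each treated for 24 h. M0 cells received medium alone, M1 cells 1 µg/mL lipopolysaccharide (LPS) with 20 ng/mL IFN-γ, and M2 cells 20 ng/mL IL-4. The CaP and SiO2 groups received microrods at 0.1 mg/mL, which are rod-shaped particles of calcium phosphate or silica, both with alginate, protamine and carboxymethyl chitosan, to ask how alveolar macrophages respond to such carrier particles. The particles of the 3 wells of a microrod group were prepared independently, and the study states 1 cell passage for the microrod comparisons. The model is a cell line cultured without T cells.

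The regions upstream of 3 members are shown because *Cd274* and *Pdcd1lg2*, the PD-1 ligands, lie next to each other with 0 protein-coding genes between them and gave different values under the stimuli, and because *Cd80* was the member that fell under IL-4. Each run is the 250 bases before the gene's start in RefSeq, build GRCm38.p6, + strand, 5′ to 3′, and capitals mark matches to the motifs given below the sequences. *Cd80* lies at chr16:38458683-38458932, *Cd274* at chr19:29367188-29367437 and *Pdcd1lg2* at chr19:29410669-29410918.
Cd80: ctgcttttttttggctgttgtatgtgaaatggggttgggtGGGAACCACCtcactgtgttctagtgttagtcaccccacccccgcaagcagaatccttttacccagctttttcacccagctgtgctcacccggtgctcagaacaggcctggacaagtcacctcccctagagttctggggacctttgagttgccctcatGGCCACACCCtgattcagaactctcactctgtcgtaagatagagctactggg
Cd274: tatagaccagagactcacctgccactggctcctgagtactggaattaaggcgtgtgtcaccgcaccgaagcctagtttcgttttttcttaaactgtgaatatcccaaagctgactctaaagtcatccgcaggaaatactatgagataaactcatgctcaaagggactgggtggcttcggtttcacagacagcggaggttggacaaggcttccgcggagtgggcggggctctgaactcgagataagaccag
Pdcd1lg2: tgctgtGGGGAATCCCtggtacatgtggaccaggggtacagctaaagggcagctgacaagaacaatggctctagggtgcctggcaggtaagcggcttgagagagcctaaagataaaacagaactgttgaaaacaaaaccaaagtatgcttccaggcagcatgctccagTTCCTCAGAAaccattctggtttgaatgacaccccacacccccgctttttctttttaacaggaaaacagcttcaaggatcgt

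Promoter sequences were at hand for 6 of the 10 genes, the other 3 being those of *Icosl*, *Havcr2* and *Vsir*. The motifs searched on both strands were the STAT6 motif TTCNNNNGAA, which 5.85% of 32817 promoter windows of the same length hold, the interferon response motif GAAANNGAAA (2.97%) and a loose κB motif GGGNNNNNCC (45.8%), and none of the matches shown overlap. The *Pdcd1lg2* window held a STAT6 motif match, TTCCTCAGAA, whose first base lies 82 bases before the start, and a κB match, GGGGAATCCC, 244 bases before it. The *Cd274* window held no match, and the *Cd80* window held κB matches 210 and 52 bases before the start. Of the windows not printed, that of *Icosl* held κB matches 111 and 71 bases before the start. Those of *Havcr2* and *Vsir* held no match. A match describes letters in this window, not a bound site.

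Library totals ranged from 8459643 to 68750050 counts, so a member with few counts is least precise in the smallest libraries. Of 9 macrophage genes, 8 were above 3 counts in every library, and of 8 alveolar macrophage genes only *Itgax* was, with *Car4* and *Ear2* at or under 3 counts throughout, so the alveolar label is not carried by these markers. All 5 epithelial genes and 6 of 7 T cell genes, *Cd3e*, *Cd4* and *Cd8a* among them, were at or under 3 counts in every library. In M1 the remaining T cell gene, *Lck*, brought that list to 13.9 to 14.5 CPM (counts scaled to library size, as used below) against 6.16 to 9.73 in M0. The 5 B cell genes summed to 9.04 to 14.5 against 0.463 to 1.08 (mostly *Cd79b*, with *Ms4a1* and *Pax5* at or under 3 counts). The 6 dendritic cell genes summed to 4.13 to 4.92 CPM in M1 against 17.7 to 22.8 in M0. Among them *Cd209a* averaged 0.770 CPM in M1 against 19.4 in M0, while *Ccr7* averaged 2.135 against 0. *Flt3* averaged 0.427 against 0.153, *Xcr1* 0.268 against 0.130 and *Zbtb46* 0.972 against 0.889, with *Clec9a* at 0 in both. The part of these lists in the M1 values was not tested. The 5 neutrophil genes summed to at most 1.71 CPM in any library. The stimuli were checked by their target genes: *Il6* averaged 51.4 CPM in M1 and was at or under 3 counts in every M0 library, *Nos2* averaged 6.20 CPM in M1 and had 0 counts in M0, *Cxcl10* averaged 15.8 against 2.30 CPM, and *Arg1* averaged 1550 CPM in M2 against 10.99 in M0, with *Mgl2* at 489 against 2.26 and *Ccl24* at 22.7 against 0.849. *Irf1*, listed as an M1 gene, was lower in M1 than in M0 (4.22 against 7.25 CPM, adjusted p = 0.0290).

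Per length of transcript, *Cd40* and *Vsir* were the most abundant members in resting cells. In M0, *Cd40* stood at 11.7 ± 0.892 and *Vsir* at 10.9 ± 1.10 CPM per kb (mean ± SD, n = 3), values whose spreads overlap. *Havcr2*, *Cd86*, *Cd200r1*, *Cd80* and *Icosl* lay between 1.91 and 1.01 CPM per kb, each within the SD of its neighbour in that order. *Cd274* at 0.363 ± 0.187 and *Cd83* at 0.270 ± 0.0621 CPM per kb were low, and *Pdcd1lg2* was at or under 3 counts in every M0 library. The order changed with the stimuli: in M1, *Cd83* (4.37 CPM per kb) and *Cd274* (3.17) came next after *Cd40* and *Vsir*.

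**Figure D1:**
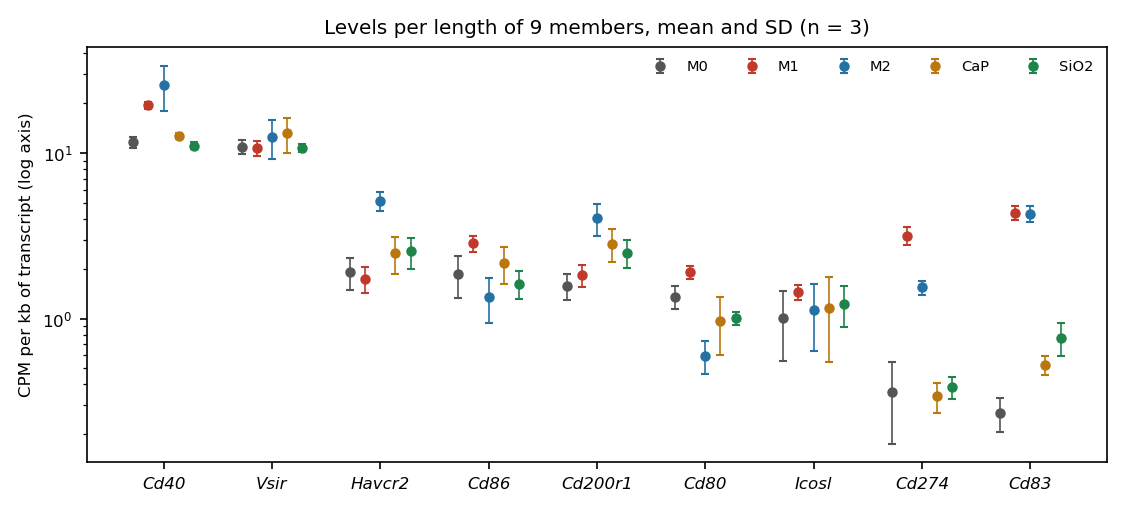
Level of 9 members per length of transcript, in CPM per kb on a log axis, with the mean and SD of 3 libraries for each of the 5 groups. *Cd40* and *Vsir* are the highest 2 in every group, while *Cd274* goes from 0.363 in M0 to 3.17 in M1 and 1.55 in M2 and *Cd83* from 0.270 to 4.37 and 4.30, and *Pdcd1lg2* is left out because 3 groups are at or under 3 counts.

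Of the 9 genes, 6 were called with IL-4, 3 with LPS and IFN-γ, and at most 1 with either microrod. A gene is called here at an adjusted p below 0.05 (edgeR's quasi-likelihood test, Benjamini-Hochberg over all 16654 genes) and an absolute log2 fold change above 0.5. In M1 against M0, 3 members were called, all higher (*Cd40*, *Cd274* and *Cd83*), where 14.1% of all genes were called, 9.7% higher and 4.37% lower. In M2 against M0, 6 members were called, 5 higher (*Cd40*, *Cd274*, *Cd83*, *Havcr2* and *Cd200r1*) and *Cd80* lower, where 4.13% of all genes were called, 2% higher and 2.13% lower. The median log2 fold change of the 9 members was 1.145 in M2 against 0.07 over all genes tested, and in M1 it was 0.53 against -0.01 over all genes.

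With SiO2 microrods, 1 member was called, *Cd83*, higher than in M0, where 0.264% of all genes were called and 0.222% higher. With CaP microrods 0 members were called, by edgeR or by DESeq2, and edgeR called 0.654% of all genes. *Cd83* and *Cd200r1* had an unadjusted p below 0.05 in edgeR's test with CaP, as they did with SiO2. The share of all genes at that p was not counted. Between CaP and SiO2, 0 members were called by either tool and 0 had an unadjusted p below 0.05, where edgeR called 0.018% of all genes. Median log2 fold changes of the 9 members were 0.24 for CaP and 0.25 for SiO2 against M0, with 0.06 and -0.02 over all genes. All 4 comparisons with M0 share the same M0 libraries. In bulk RNA, a change in the number of cells with a transcript and a change in transcript per cell cannot be told apart.

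Compared directly, M1 and M2 differed in 5 members. *Cd80*, *Cd86* and *Cd274* were higher in M1, and *Havcr2* and *Cd200r1* higher in M2, where 16.1% of all genes were called, 10.6% higher and 5.46% lower in M1. The median over the 9 members was 0.04, beside -0.04 over all genes.

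The libraries of the groups did not overlap for 6 of the 9 members in M1 against M0 (32.2% of all genes), 6 in M2 against M0 (15.2%), 2 in CaP against M0 (17.4%), 3 in SiO2 against M0 (18%), 2 in CaP against SiO2 (8.1%) and 5 in M1 against M2 (29.4%). In the M1 comparison the 6 were the 3 called members and *Cd80*, *Cd86* and *Icosl*, which did not pass the test.

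**Figure D2:**
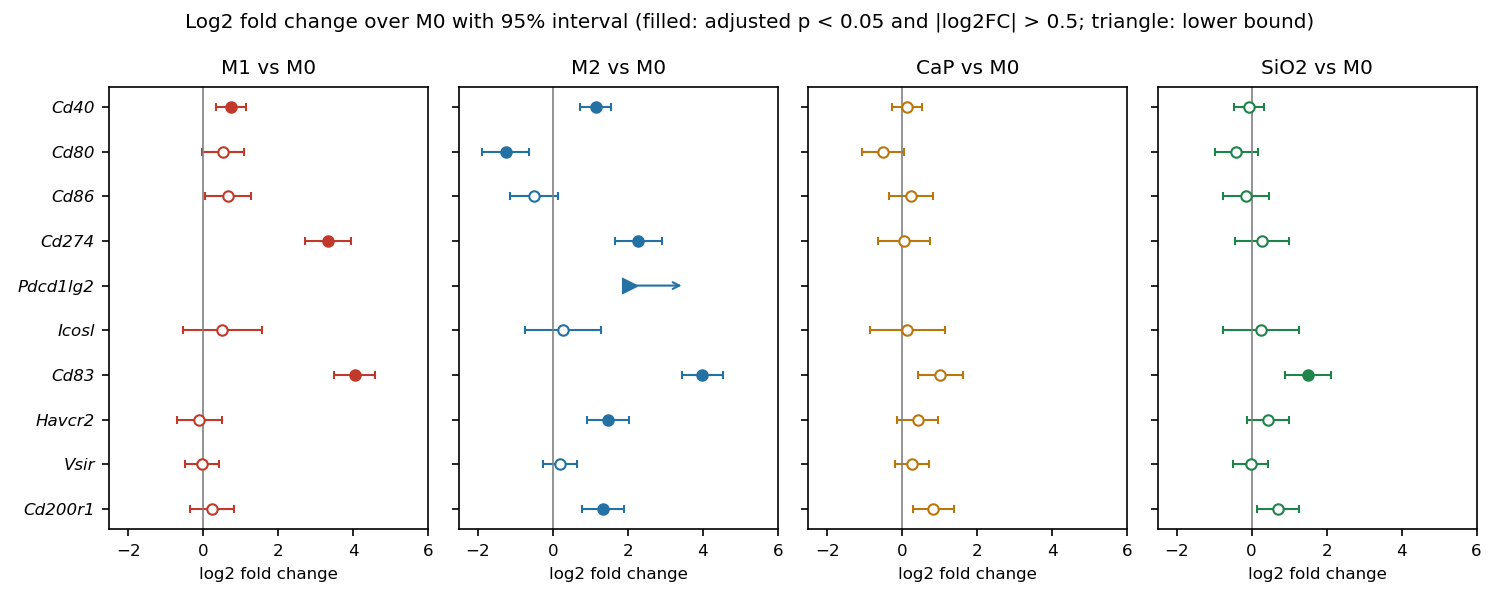
Log2 fold change over M0 with its 95% interval for each member, in separate panels for M1, M2, CaP and SiO2, where filled points passed the test. In M2 *Pdcd1lg2*, given with no test, is a triangle at its lower bound of 2.05, and no point is drawn for it elsewhere. *Cd83* lies near 4 in M1 and M2 and at 1.02 and 1.51 in CaP and SiO2.

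*Cd40*, the receptor through which T cell help reaches the macrophage, was called higher with both stimuli. Its libraries read 33.2, 33.4 and 37.9 CPM in M0, 58.6, 55.2 and 60.3 in M1, and 76.9, 101 and 54.0 in M2. With CaP they read 37.7, 39.6 and 36.6 CPM and with SiO2 35.1, 31.6 and 32.9. Every M1 and M2 library stood above every M0 library, and the M2 libraries spanned a 1.86-fold range against 1.09-fold in M1. *Cd40* was 1.67-fold higher in M1 (log2 0.74 ± 0.19 SE, adjusted p = 0.0181) and 2.21-fold higher in M2 (log2 1.15 ± 0.19, adjusted p = 0.00323). Neither microrod group passed the test, with log2 differences of 0.13 (95% interval -0.28 to 0.53) for CaP and -0.07 (-0.47 to 0.34) for SiO2. The M1 call was lost without M0 replicate 1 (adjusted p = 0.0687), M0 replicate 2 (0.0604) or M1 replicate 3 (0.0625), and with no filter on low counts (0.0825). The difference between M1 and M2 did not pass (log2 -0.41, adjusted p = 0.164) but was called without M2 replicate 3 (log2 -0.62, adjusted p = 0.0232).

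*Cd80* and *Cd86*, which encode the ligands of CD28 and CTLA-4, were both higher in M1 than in M2, and *Cd80* alone was called against M0. *Cd80* read 3.90, 3.90 and 5.10 CPM in the M0 libraries, 6.28, 5.47 and 6.51 in M1, and 1.77, 2.37 and 1.53 in M2. It read 2.11, 4.40 and 2.74 CPM with CaP and 3.18, 3.48 and 2.89 with SiO2. The M1 libraries were all above M0, and the M2 and SiO2 libraries all below it, while 1 CaP library lay within the M0 range. *Cd80* fell by 1.26 ± 0.29 on the log2 scale in M2 (0.419-fold, adjusted p = 0.0253) and did not pass the test in M1 (log2 0.53 ± 0.26, adjusted p = 0.214), CaP (-0.51, adjusted p = 0.354) or SiO2 (-0.41, adjusted p = 0.755). In M1 it was 3.44-fold higher than in M2 (log2 1.78 ± 0.29, adjusted p = 6.68e-04). The fall in M2 rested on small counts, from 18 to 107 in the M2 libraries, and its call was lost without M0 replicate 1 (adjusted p = 0.062), M0 replicate 3 (0.0811), M2 replicate 1 (0.0781) or M2 replicate 3 (0.175), and with no filter on low counts (0.0564).

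*Cd86* read 3.24, 5.07 and 5.91 CPM in M0, 7.05, 6.56 and 8.07 in M1, and 2.87, 4.61 and 2.79 in M2. With CaP it read 4.25, 6.97 and 5.21 CPM and with SiO2 3.52, 4.99 and 3.84. Every M1 library was above every M0 library, 1 CaP library lay within the M1 range, and the other groups overlapped M0. No comparison of *Cd86* with M0 passed the test: the log2 differences were 0.66 ± 0.28 in M1 (adjusted p = 0.144), -0.50 ± 0.30 in M2 (0.436), 0.24 ± 0.28 with CaP (0.704) and -0.16 ± 0.29 with SiO2 (0.951). In M1 it was 2.23-fold higher than in M2 (log2 1.16 ± 0.29, adjusted p = 0.0147). That call was lost without M1 replicate 3 (adjusted p = 0.0559), M2 replicate 1 (0.0576) or M2 replicate 3 (0.0932), and with only the 6 libraries compared (0.0671).

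The balance between these ligands was taken within each library as the log2 ratio of *Cd80* to *Cd86* counts, 0.5 added to each, which needs no scaling between libraries. It was 0.27, -0.38 and -0.21 in the M0 libraries, -0.17, -0.26 and -0.31 in M1, and -0.68, -0.94 and -0.86 in M2. It was -1.003, -0.66 and -0.92 with CaP and -0.15, -0.52 and -0.41 with SiO2. Every M2 and CaP library was below every M0 library, and the differences of the means were -0.72 for M2 and -0.76 for CaP. Each gave p = 0.1 in an exact two-sided permutation test, the smallest p that 3 against 3 libraries can give (adjusted p = 0.267 over 8 ratio comparisons). Those 8 include the ratios of *Pdcd1lg2* to *Cd274*, which are not read as tests because *Pdcd1lg2* was at or under 3 counts in M0. For M1 the difference was -0.14 (exact p = 0.8) and for SiO2 -0.25 (exact p = 0.4).

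**Figure D3:**
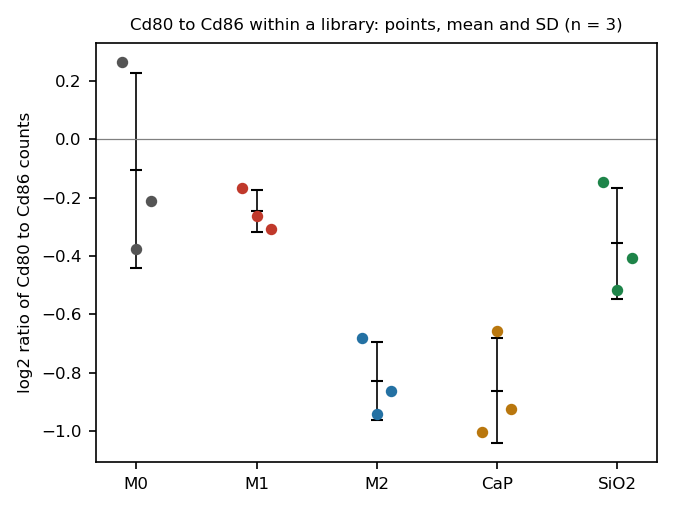
Log2 ratio of *Cd80* to *Cd86* counts in each library (points) with the mean and SD of 3 libraries per group. The M2 libraries lie between -0.94 and -0.68 and the CaP libraries between -1.003 and -0.66, below the M0 libraries at -0.38 to 0.27.

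Of the PD-1 ligands, *Cd274* was called higher with both stimuli. *Cd274*, which encodes PD-L1, read 0.817, 1.04 and 2.08 CPM in M0, 12.8, 9.98 and 11.7 in M1, and 6.21, 5.40 and 5.19 in M2. With CaP it read 1.00, 1.51 and 1.17 CPM and with SiO2 1.17, 1.59 and 1.43, inside the M0 range. The order was M1 above M2 above the other 3 groups, with no overlap at those steps. *Cd274* was 10.0-fold higher in M1 (log2 3.33 ± 0.29, adjusted p = 3.81e-06) and 4.88-fold higher in M2 (log2 2.29 ± 0.30, adjusted p = 4.71e-04), and 2.06-fold higher in M1 than in M2 (log2 1.04 ± 0.24, adjusted p = 0.00921). The difference between M1 and M2 was not called without M2 replicate 3 (adjusted p = 0.0524). With CaP the log2 difference from M0 was 0.05 (95% interval -0.64 to 0.74) and with SiO2 0.28 (-0.43 to 0.99).

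*Pdcd1lg2*, which encodes PD-L2, was counted in M2 and hardly elsewhere. The M2 libraries held 15, 6 and 53 counts of it, or 1.02, 0.790 and 0.758 CPM. M0 held 2, 1 and 0 counts, M1 0, 4 and 1, CaP 2, 2 and 2, and SiO2 0, 3 and 0. Taking 3 counts per library as the limit of detection, *Pdcd1lg2* was at least 4.14-fold higher in M2 than in M0. No p is given, since the M2 counts brought the gene into the test, and the M1 counts lie around the limit. Per length, the M2 level of *Pdcd1lg2* was 0.496 ± 0.0838 CPM per kb (SD, n = 3), beside 1.55 ± 0.148 for *Cd274*. The *Pdcd1lg2* window printed above holds the STAT6 motif letters and the *Cd274* window does not. The M2 libraries of both genes were above the M0 libraries, and a link between these letters and the levels was not tested.

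*Icosl*, the ligand of ICOS, passed no test and varied most between wells among the members above the detection limit. It read 3.56, 1.37 and 3.59 CPM in M0, 3.95, 4.51 and 3.69 in M1, and 3.82, 1.58 and 4.14 in M2. With CaP it read 1.27, 4.34 and 4.21 CPM and with SiO2 3.18, 4.54 and 2.69. In M0, M2 and CaP 1 library of 3 was far below the other two. Its SD between replicate libraries was 0.67 on the log2 scale, larger than or equal to that of 80% of all genes tested, where the median was 0.38. The log2 differences from M0 lay between 0.14 and 0.51. Their 95% intervals were as wide as -0.53 to 1.56 in M1, so these data do not separate changes within that range.

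*Cd83*, the activation marker, showed the largest fold change of the members in M1 and the one call with microrods. Its M0 libraries read 0.579, 0.846 and 0.579 CPM, from 22, 13 and 5 counts. In M1 it read 11.95, 10.5 and 10.01 CPM and in M2 10.6, 11.8 and 9.50. With CaP it read 1.46, 1.12 and 1.35 CPM and with SiO2 2.35, 1.82 and 1.51. All treated libraries were above all M0 libraries, M1 and M2 overlapped each other, and every SiO2 library was above every CaP library. *Cd83* was 16.4-fold higher in M1 (log2 4.03 ± 0.26, adjusted p = 1.88e-07) and 15.9-fold higher in M2 (log2 3.99 ± 0.26, adjusted p = 6.14e-07), and M1 and M2 differed by 0.04 on the log2 scale (95% interval -0.37 to 0.46).

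With SiO2 microrods *Cd83* was 2.85-fold higher than in M0 (95% interval 1.87 to 4.36, log2 1.51 ± 0.29, adjusted p = 0.0476). That call sat at the threshold: it was lost in each of the 6 fits that left out an M0 or SiO2 library, where the log2 value stayed between 1.31 and 1.69. Adjusted p was 0.565, 0.0604 and 0.154 without M0 replicates 1, 2 and 3, and 0.285, 0.121 and 0.0961 without SiO2 replicates 1, 2 and 3. It was also lost with the replicate number as a block (adjusted p = 0.0727). With CaP *Cd83* was 2.03-fold the M0 level (log2 1.02 ± 0.28, adjusted p = 0.121), which did not pass, and the difference between CaP and SiO2 was -0.49 ± 0.24 (SE) on the log2 scale (unadjusted p = 0.0572).

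Among the inhibitory receptors, *Havcr2* and *Cd200r1* were higher with IL-4 and *Vsir* passed no test. *Havcr2* (TIM-3) read 3.87, 5.79 and 5.91 CPM in M0, 5.42, 3.76 and 5.05 in M1, and 16.0, 12.8 and 13.2 in M2. With CaP it read 4.92, 8.28 and 7.20 CPM and with SiO2 6.26, 8.62 and 5.90. The M2 libraries stood above all the others. Among the other 4 groups, every SiO2 library was above every M1 library, and the remaining pairs of groups overlapped. *Havcr2* was 2.77-fold higher in M2 than in M0 (log2 1.47 ± 0.26, adjusted p = 0.00483) and 0.337-fold as high in M1 as in M2 (log2 -1.57 ± 0.26, adjusted p = 9.53e-04). Log2 differences from M0 were -0.10 in M1, 0.41 with CaP (95% interval -0.14 to 0.96) and 0.44 with SiO2 (-0.12 to 1.00).

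*Cd200r1*, the receptor of CD200 that restrains myeloid cells, read 2.87, 2.54 and 3.59 CPM in M0 and 3.78, 2.87 and 3.79 in M1. It read 7.78, 9.21 and 5.95 CPM in M2, 4.41, 6.71 and 4.91 with CaP and 3.87, 4.61 and 5.71 with SiO2. The M2, CaP and SiO2 libraries were all above the M0 libraries, and the M2 and CaP ranges overlapped. *Cd200r1* was 2.53-fold higher in M2 (log2 1.34 ± 0.26, adjusted p = 0.00921), a call lost without M0 replicate 1 (adjusted p = 0.062). It was 0.465-fold as high in M1 as in M2 (log2 -1.10 ± 0.26, adjusted p = 0.0104), a call lost without M1 replicate 2 (adjusted p = 0.0567). The microrod differences from M0 were 0.84 ± 0.25 for CaP (adjusted p = 0.148) and 0.69 ± 0.26 for SiO2 (adjusted p = 0.478), and neither passed.

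*Vsir*, which encodes VISTA, read 48.4, 58.9 and 51.9 CPM in M0, 46.9, 51.8 and 57.2 in M1, and 77.7, 45.3 and 59.5 in M2. With CaP it read 46.3, 69.3 and 75.5 CPM and with SiO2 48.8, 52.3 and 54.8. All groups overlapped. The 95% intervals of its log2 difference from M0 were -0.49 to 0.43 in M1, -0.26 to 0.66 in M2, -0.19 to 0.72 with CaP and -0.49 to 0.43 with SiO2.

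CaP and SiO2 microrods differ in the mineral of the framework. The study also states that equal mg/mL hold different numbers of rods, because the densities differ. Set directly against each other, the CaP and SiO2 groups gave 9 member comparisons, each with an adjusted p of 1. The log2 difference, CaP minus SiO2, was 0.19 for *Cd40* (95% interval -0.21 to 0.59), whose CaP libraries were all above the SiO2 libraries. For the B7 ligands it was -0.10 for *Cd80* (-0.67 to 0.46), 0.40 for *Cd86* (-0.19 to 0.98), -0.23 for *Cd274* (-0.88 to 0.43) and -0.11 for *Icosl* (-1.09 to 0.87). For the inhibitory receptors it was -0.03 for *Havcr2* (-0.57 to 0.50), 0.29 for *Vsir* (-0.16 to 0.75) and 0.14 for *Cd200r1* (-0.37 to 0.66). Every one of these 8 intervals includes 0, and a p above the threshold does not show that the particles act alike.

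**Figure D4:**
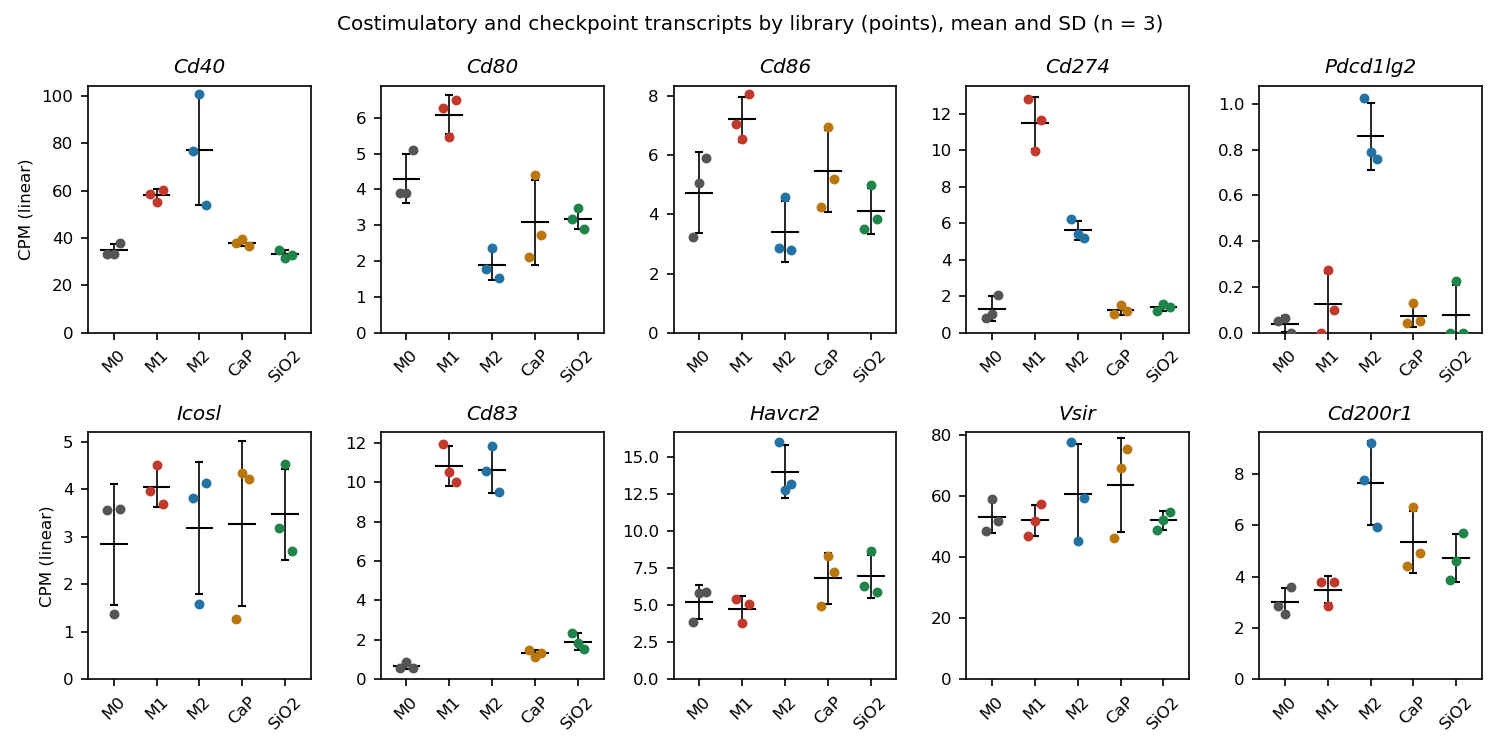
CPM of each member in each library (points, linear axes) with the mean and SD of 3 libraries per group. *Cd83* and *Cd274* stand out in M1 and M2, *Pdcd1lg2*, *Havcr2* and *Cd200r1* in M2, and *Vsir* and *Icosl* overlap between all or nearly all groups.

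A further 47 genes of these pathways, other ligands, receptors and adaptors that a macrophage can carry, were counted from a list, and 38 of them were tested. In M1 against M0, 8 were called higher and 2 lower, 26.3% of the 38 beside 14.1% of all genes. The 5 with the smallest p among those reaching 5 CPM were *Traf1* (35.5 against 5.03 CPM, log2 2.83 ± 0.26), an adaptor of the TNF receptor family, *Lgals9* (52.0 against 9.14 CPM, log2 2.52 ± 0.31), whose product galectin-9 binds TIM-3, *Cd47* (132 against 63.9 CPM, log2 1.05 ± 0.13), the ligand of SIRPα, *Pilra* (219 against 123 CPM, log2 0.83 ± 0.18), an inhibitory receptor, and *Traf2* (54.2 against 29.3 CPM, log2 0.90 ± 0.23). The lower genes were *Rasa1* (20.9 against 53.6 CPM, log2 -1.36 ± 0.31), a Ras GTPase-activating protein, and *Lair1* (16.0 against 25.8 CPM, log2 -0.69 ± 0.18), a collagen receptor that inhibits. Of the adaptors, *Traf1* and *Traf2* serve receptors of the CD40 family, and *Cd40* itself was called higher in the same comparison. The other *Traf* genes listed were not called in M1, with log2 differences of -0.62 for *Traf3*, 0.27 for *Traf5* and 0.24 for *Traf6*. Every M1 library of *Traf3* was below every M0 library. In M2, where *Cd40* was also called higher, *Traf1* was lower in every library (2.58 against 5.03 CPM, adjusted p = 0.0696, not called). A link between *Cd40* and these adaptors was not tested. *Traf2* was not called without M0 replicate 1 (adjusted p = 0.0937), M1 replicate 2 (0.0921) or M1 replicate 3 (0.0707), nor *Rasa1* without M1 replicate 3 (0.0508), nor *Lair1* without M0 replicates 2 or 3 (0.0505 and 0.0696) or M1 replicates 1 or 2 (0.053 and 0.0837).

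In M2 against M0, 4 of the 38 were called higher and 2 lower, 15.8% beside 4.13% of all genes. Of these, *Cd200r4*, a relative of *Cd200r1*, was higher (42.9 against 4.30 CPM, log2 3.31 ± 0.29, adjusted p = 1.02e-05), and *Pilra* (49.7 against 123 CPM, log2 -1.32 ± 0.19) and *Rasa1* (20.8 against 53.6 CPM, log2 -1.39 ± 0.31) were lower. The call of *Rasa1* was lost without M0 replicate 1 (adjusted p = 0.113), M2 replicate 1 (0.0948) or M2 replicate 3 (0.0923). *Pilra* was higher in M1 and lower in M2, and the direct comparison of M1 with M2 was called (log2 2.15 ± 0.19, adjusted p = 3.01e-06). In M1 against M2, 6 were called higher and 7 lower, 34.2% beside 16.1% of all genes, the smallest p among those higher being that of *Traf1* (log2 3.84 ± 0.28) and among those lower that of *Cd200r4* (log2 -3.51 ± 0.29). The median log2 fold change of the 38 genes was 0.02 in M1 and 0.13 in M2, beside -0.01 and 0.07 over all genes.

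With microrods, 1 of the 38 genes was called with CaP (2.63% beside 0.654% of all genes). None was called with SiO2 (0.264% of all genes) or between CaP and SiO2 (0.018% of all genes). The call was *Cd200r4*, which read 3.90, 4.94 and 4.05 CPM in M0, 9.62, 12.3 and 11.2 with CaP and 9.79, 13.3 and 11.7 with SiO2. Both microrod groups were above M0 in every library and overlapped each other. The log2 fold change was 1.36 ± 0.28 for CaP (adjusted p = 0.043) and 1.43 ± 0.28 for SiO2 (adjusted p = 0.055, not called), and CaP and SiO2 differed by -0.08 (95% interval -0.63 to 0.48). The CaP call was lost without M0 replicate 1 (adjusted p = 0.297), 2 (0.0535) or 3 (0.137) and without CaP replicate 2 (0.112) or 3 (0.184), with only the 6 libraries compared (0.162), and with the legacy quasi-likelihood (0.0513). *Cd200r1* and *Cd200r4* lie next to each other and are related in sequence, so how the counting step divided reads between them is uncertain.

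**Figure D5:**
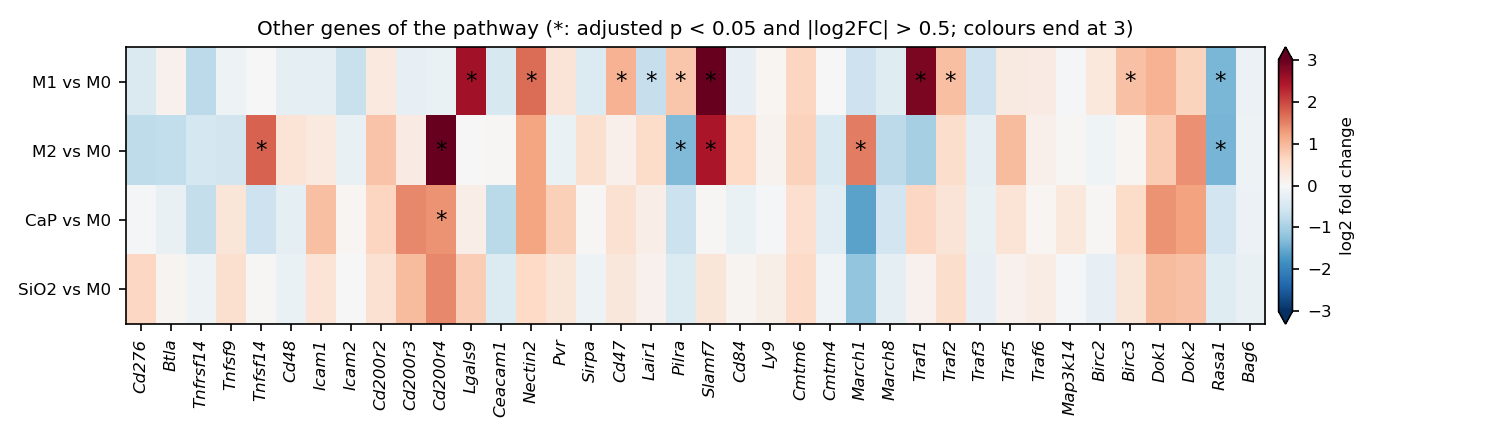
Log2 fold change over M0 of the 38 tested genes of the pathway list in M1, M2, CaP and SiO2, as colours that end at 3, with a star where the test was passed. The M1 and M2 rows carry 10 and 6 stars, the CaP row 1 at *Cd200r4* and the SiO2 row 0.

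Counter-receptors that lymphocytes carry were looked for in the same libraries. Of 14 lymphocyte counter-receptors and ligands, 6 were at or under 3 counts in every library, namely *Ctla4*, *Pdcd1*, *Cd40lg*, *Cd226*, *Cd96* and *Cd200*. Above 3 counts in every library were *Cd28*, *Tnfrsf9* and *Cd27*, named after their values were seen. *Cd28*, the receptor of CD80 and CD86, averaged 8.29 CPM in M0, 4.22 in M1, 10.3 in M2, 9.38 with CaP and 9.23 with SiO2. *Tnfrsf9*, which encodes 4-1BB, averaged 8.45 CPM in M0, 18.5 in M1, 5.87 in M2, 18.8 with CaP and 14.2 with SiO2, values given without a test. Neither rule was met by *Icos*, *Lag3*, *Tigit*, *Tnfrsf4* and *Tnfrsf18*. Of these, *Tigit* averaged 1.96 CPM in M2, 0.0217 in M0 and 0 in M1, CaP and SiO2, and was not tested either.

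For the members called against M0 with an absolute log2 fold change above 1 in at least 1 comparison, the genes most alike were those with the smallest root mean square difference of log2 CPM over the 15 libraries, each gene centred on its M0 mean. *Cd274* was nearest to *Tarm1* (0.379), *Slamf7* (0.436) and *Adgre1* (0.554), and *Cd83* to *Usp18* (0.788) and *Ptpn5* (0.790). *Havcr2* was nearest to *Klhl25* (0.207) and *Cd200r1* to 6430531B16Rik (0.279). *Cd40* was nearest to *Mcub* (0.170) and *Cd80* to *Pcdhac2* (0.253). These are descriptions over libraries that share 5 groups and their depths. No member was among the 3 nearest genes of another.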

How the data were processed

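The authors prepared Smart-seq2 libraries, which have no molecular identifiers, sequenced them as paired-end reads, and ran the nf-core/rnaseq pipeline with STAR and Salmon on the Ensembl mouse annotation, with the build GRCm39 per the labels. They deposited 1 table of counts, whole numbers per gene, neither normalized nor filtered, which may be rounded Salmon estimates, and 0 of its columns were left unused. Near-identical genes were divided by that step. The limit of detection covers counting error alone, and p-values measure the spread between wells and particle batches, not between cell passages.

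Counts were analysed with edgeR 4.0.16 in R 4.3.3, and DESeq2 1.42.0, the tool of the authors, was the alternative. The 15 libraries were fitted in 1 model with a mean per group, after filterByExpr and TMM scaling, and tested with glmQLFTest and Benjamini-Hochberg adjustment over 16654 genes. The newer quasi-likelihood of edgeR was used, a choice made after seeing the data, with the legacy method as an alternative. Both thresholds (0.05 for the adjusted p, 0.5 for the absolute log2 change) follow the study. Replicate libraries of each group differed by more than counting noise and none was counted as a duplicate. CPM are relative to scaled library sizes. A gene at or under 3 counts in every library of a group was taken as undetected there. Symbols and transcript lengths came from a GENCODE annotation of GRCm38 and gave 51487 identifiers a symbol. Same-numbered libraries were checked for pairing by the correlation of their deviations from the group means: only in M1 against M0 was every pair above 0.1 (0.292, 0.275 and 0.206), and the fit with the replicate number as a block is an alternative. Other alternatives changed the scaling, the filter and the libraries fitted, or left out 1 library. The scripts were tested on simulated data.

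All 10 members are named. Of the pathway list, at most 5 called genes per direction were to be named, by smallest p, if their mean reached 5 CPM in either group. The members and lists were chosen with earlier results of these data known.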

Additional observations from a re-analysis of the deposited data

How the results depend on the processing

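Counts in the thinnest library were 0 for *Pdcd1lg2*, 5 for *Cd83*, 12 for *Icosl*, 16 for *Cd274* and 18 for *Cd80*, which limits their precision. The called differences and their fits that follow include *Pdcd1lg2* in M2 against M0 and in M1 against M2. Those calls were kept in 11 of 12 and in 6 of 11 fits. Its other comparisons are not counted, because both groups lay at or around the limit of detection. Its calls are not read as a result, since its M2 counts brought it into the test. Of 17 called member differences, recomputed in 216 fits in all, 178 kept their call, 38 lost it and 0 turned direction. Of 39 differences that were not called, in 530 fits, 500 stayed uncalled in the same direction, 1 became called and 29 turned direction. The cause of these changes was not tested except where fewer libraries or genes entered.

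With only the 6 libraries compared, *Cd83* alone of the 9 members was called in M2 against M0, in place of 6. Leaving out 1 library at a time gave 4 to 7 calls with *Pdcd1lg2* counted, the lowest without M0 replicate 1. The single SiO2 call became 0 with DESeq2's size factors, with no filter, with a minimum of 10 counts per library (where *Cd83* was not tested), with only the 6 libraries, with the 9 M0, CaP and SiO2 libraries, and without each library in turn. It was kept by DESeq2, by the legacy quasi-likelihood (added after seeing the data) and with no threshold on the fold change.

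The replicate numbers share no stated batch. The correlation of same-numbered deviations ranged from -0.704 to 0.604 over 18 pairs, 7 of them above 0.1, and 4 of 15 libraries correlated best with their own number. The replicate block left 0 called members with SiO2 and changed no other call of a member; of the pathway list it ended the calls of *March1* in M2 against M0 (adjusted p = 0.0949) and of *Cd48* (0.0671) and *Cd84* (0.0793) in M1 against M2. In M1 against M0, where all 3 pairs were above 0.1, it left the 3 calls in place.

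Log2 values that turned direction were all of uncalled differences. With the legacy method *Cd274* in CaP against M0 was -0.028, and with only the 6 libraries *Cd83* in M1 against M2 was -0.014. Without 1 library at a time, M1 against M0 ranged from -0.333 to 0.048 for *Havcr2* and from -0.117 to 0.048 for *Vsir*. M2 against M0 ranged from -0.046 to 0.572 for *Icosl* and from -0.02 to 0.365 for *Vsir*. CaP against M0 ranged from -0.046 to 0.406 for *Cd86*, from -0.331 to 0.392 for *Cd274* and from -0.194 to 0.566 for *Icosl*. SiO2 against M0 ranged from -0.43 to 0.007 for *Cd86*, from -0.091 to 0.617 for *Cd274*, from -0.07 to 0.551 for *Icosl* and from -0.104 to 0.053 for *Vsir*. CaP against SiO2 ranged from -0.386 to 0.114 for *Cd80*, from -0.447 to 0.316 for *Icosl*, from -0.183 to 0.154 for *Havcr2* and from -0.029 to 0.309 for *Cd200r1*. M1 against M2 ranged from -0.094 to 0.49 for *Icosl* and from -0.048 to 0.091 for *Cd83*.

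The log2 ratio of *Pdcd1lg2* to *Cd274* in M2 minus M0 went from 1.44 to 0.448 with 2 counts added in place of 0.5. That of *Cd80* to *Cd86* in M1 minus M0 ranged from -0.273 to 0.048 without 1 library at a time.

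Over all genes, M2 against M0 called 687 genes, but 98 with 6 libraries, 1141 with no filter and 316 to 1361 without 1 library. CaP against M0 called 109, but 461 with DESeq2, 968 with no filter, 7 with 6 libraries, 68 with 9, 59 with the block or the legacy method and 30 to 183 without 1 library. SiO2 against M0 called 44, but 130 with DESeq2, 205 with no filter, 1 with 6 libraries, 10 with 9, 19 with the block and 8 to 28 without 1 library. CaP against SiO2 called 3, but 17 with DESeq2 and 104 with no filter. M1 against M0 called 2342, but 1511 without M1 replicate 3 and 1516 without M1 replicate 2. M1 against M2 called 2679, but 1377 with 6 libraries, 4407 with no filter, 1764 without M2 replicate 3 and 4270 without M2 replicate 2.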
